A study of Mus musculus with 32 samples.

Results

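TCA cycle enzymes were examined in mouse liver as 9 genes of the mitochondrial tricarboxylic acid (TCA) cycle. These are Cs, Idh3a, Idh3b, Idh3g, Ogdh, Suclg1, Suclg2, Fh1 and Mdh2. The genes were chosen by name and not by their values, although earlier results of these data were known. They are 9 of the 20076 genes in the count table, and all 9 passed the filter on low counts in every comparison. The study asked how livers of Acadm-knockout (KO) mice, which lack medium-chain acyl-CoA dehydrogenase (MCAD), respond to diet and fasting compared with wild type (WT). All mice were male, on the C57BL/6J background, and carried either the Acadm knockout or no alteration. They received a low-fat (LF) or a high-fat (HF) semisynthetic diet for 6 weeks and were then fasted for 16 h or left on the diet (fed). The labels give 4 mice in each of 8 groups of genotype, diet and feeding state, with ages of 7.5 to 16 and no unit named. Of the 32 mice, 2 were left out by the rule that defined the set: 1 KO HF fasted mouse whose library carried heart transcripts, and 1 WT LF fed mouse. This left 30 mice, with 3 in the WT LF fed and KO HF fasted groups and 4 in each of the other groups.

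The TCA cycle oxidizes the acetyl group of acetyl-CoA in the mitochondrial matrix and passes the electrons to the respiratory chain. In liver, its intermediates also leave the matrix as citrate for fatty acid synthesis or as malate for gluconeogenesis, and amino acid carbon enters at 2-oxoglutarate. Citrate synthase (Cs) joins acetyl-CoA and oxaloacetate, and isocitrate dehydrogenase 3 (catalytic subunit Idh3a, regulatory subunits Idh3b and Idh3g) makes 2-oxoglutarate. Ogdh is the decarboxylating component of the 2-oxoglutarate dehydrogenase complex. Suclg1 is the subunit that the GTP-forming and the ATP-forming succinyl-CoA ligases share, and Suclg2 completes the GTP-forming enzyme. Fumarase (Fh1) and mitochondrial malate dehydrogenase (Mdh2) close the cycle.

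The 9 genes lie on 8 chromosomes of GRCm38. Cs (ENSMUSG00000005683) is at chr10:128337734-128362479, Idh3a (ENSMUSG00000032279) at chr9:54586334-54604661 and Idh3b (ENSMUSG00000027406) at chr2:130279309-130284547. Idh3g (ENSMUSG00000002010) is at chrX:73778963-73786897, Ogdh (ENSMUSG00000020456) at chr11:6291633-6356642 and Suclg1 (ENSMUSG00000052738) at chr6:73248382-73276911. Suclg2 (ENSMUSG00000061838) is at chr6:95473009-95718800, Fh1 (ENSMUSG00000026526) at chr1:175600374-175625635 and Mdh2 (ENSMUSG00000019179) at chr5:135778480-135790398. All are protein-coding. Idh3b overlaps Nop56 and Fh1 overlaps Kmo on the opposite strand, and the counting is not stated to use strand. Nop56 had a median count of 15 and Kmo of 707 over all 32 libraries, so that the Fh1 counts are the less certain of these. Cs also holds a small nucleolar RNA gene that is not in the count table.

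The upstream sequences of the 3 genes that passed the test of fasting are shown, because they are the members whose transcripts moved, 1 down and 2 up. Each runs 5′ to 3′ on the + strand of GRCm38.p6 (RefSeq) and stops before the first annotated base of the gene. Capitals mark matches to the motifs searched on both strands.
Cs, chr10:128337477-128337726: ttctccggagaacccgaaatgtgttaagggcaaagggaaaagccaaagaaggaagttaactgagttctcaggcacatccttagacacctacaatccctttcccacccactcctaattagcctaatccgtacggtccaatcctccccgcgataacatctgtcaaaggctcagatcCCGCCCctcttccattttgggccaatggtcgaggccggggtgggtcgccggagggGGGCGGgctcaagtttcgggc
Ogdh, chr11:6291409-6291632: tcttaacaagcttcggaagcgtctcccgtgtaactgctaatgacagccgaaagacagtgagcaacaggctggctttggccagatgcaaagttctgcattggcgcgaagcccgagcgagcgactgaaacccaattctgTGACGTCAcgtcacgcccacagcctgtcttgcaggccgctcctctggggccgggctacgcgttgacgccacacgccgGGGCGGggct
Suclg1, chr6:73248255-73248381: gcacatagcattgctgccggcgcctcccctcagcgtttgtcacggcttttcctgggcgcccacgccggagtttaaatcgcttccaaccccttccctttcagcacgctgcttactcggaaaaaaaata
Windows of 250 bases before the RefSeq start were found for 8 of the 9 genes, all but Idh3a. The Sp1 core GGGCGG was present in 5 of these 8 (Cs, Ogdh, Suclg2, Fh1 and Mdh2) and in 32.9% of the 27025 windows of all genes. The cAMP response element TGACGTCA was present in 2 of 8 (Ogdh, where it is in capitals above, and Mdh2) and in 1.62% of all windows. The ETS core CCGGAAG was present in Idh3g and in 7.05% of all windows. CGCATGCG, AAGGTCA and CACGTG, present in 1.58%, 4.05% and 6.05% of all windows, were in none of the 8. These are matches of letters only. No motif was shared by Cs, Ogdh and Suclg1, and the Suclg1 window held none of the motifs.

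Liver RNA was read by 3′ tag sequencing, which reads each transcript near its 3′ end. The 30 libraries held 2031053 to 4292200 counted reads (median 2899001). Values are given as CPM, the reads of a gene relative to the library total after TMM scaling, and are not divided by transcript length, so that they compare mice within a gene and not genes with each other. A member's count in a single mouse ranged from 30 to 1816, with a median of 329. Acadm, the targeted gene, was between 8.98 and 37.1 CPM in the 15 KO mice and between 189.8 and 748 CPM in the 15 WT mice, with no overlap. The summed level of 10 hepatocyte markers was 46789 to 71770 CPM. Markers of acinar pancreas or skeletal muscle summed to more than 300 CPM in 4 mice, all on HF (1 KO fed, 1 WT fed, 2 WT fasted), with up to 18036 CPM for pancreas and 1808 CPM for muscle. Their medians over the 30 mice were 23.2 and 1.33 CPM. Adrenal cortex markers were also present: 8 of them, without Fdx1 and Scarb1, which liver expresses, summed to 296 CPM in KO LF fasted replicate 3, 126 in KO LF fasted replicate 4, 41.9 in KO HF fed replicate 1 and 39.9 in WT HF fasted replicate 3. The other 26 mice had at most 5.73 CPM. The library of KO LF fasted replicate 1 stood apart from its group, with a median correlation of 0.887 with the other 3 mice, where every other mouse had at least 0.925. In bulk RNA, fewer cells of a type and less RNA per cell cannot be told apart.

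Fasting was the factor with the most called members. Averaged over both genotypes and both diets, 3 of the 9 genes passed an adjusted p of 0.05 (edgeR quasi-likelihood test): Cs fell, and Ogdh and Suclg1 rose. Of all 11566 genes tested, 18.9% were called, 9.77% higher and 9.14% lower, so that 3 of 9 is not far from what the genes at large gave. The median log2 fold change was 0.09 over the 9 genes and -0.002 over all genes.

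Cs was 90.0 to 154 CPM in fed mice (median 109.5, n = 15) and 52.9 to 98.2 CPM in fasted mice (median 82.8, n = 15). The ranges met only between 90.0 and 98.2 CPM. The log2 fold change was -0.52 ± 0.08 (SE), a 1.44-fold lower level (edgeR, adjusted p = 1.14e-05).

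Ogdh was 85.1 to 124 CPM in fed mice (median 107) and 90.3 to 226 CPM in fasted mice (median 142). Its log2 fold change was 0.41 ± 0.09, or 1.32-fold (edgeR, adjusted p = 0.000544). The fasted mice above 142.3 CPM were all on LF.

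Suclg1 was 274 to 389 CPM in fed mice (median 319) and 336 to 519 CPM in fasted mice (median 402). Its log2 fold change was 0.36 ± 0.08, or 1.28-fold (edgeR, adjusted p = 0.000663). The lowest fed value, 274 CPM, was in a WT LF mouse, and the highest fasted value, 519 CPM, was in a KO HF mouse.

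The other 6 members did not pass the test of fasting. Their log2 fold changes were 0.15 ± 0.14 for Idh3a, -0.07 ± 0.09 for Idh3b, 0.09 ± 0.09 for Idh3g, -0.15 ± 0.11 for Suclg2, 0.17 ± 0.16 for Fh1 and 0.02 ± 0.08 for Mdh2, with edgeR adjusted p-values from 0.392 to 0.923. The 3 subunits of isocitrate dehydrogenase 3 thus gave values on both sides of 0, and the subunits of the GTP-forming ligase, Suclg1 and Suclg2, had log2 fold changes of opposite sign, of which the second did not pass.

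**Figure D1:**
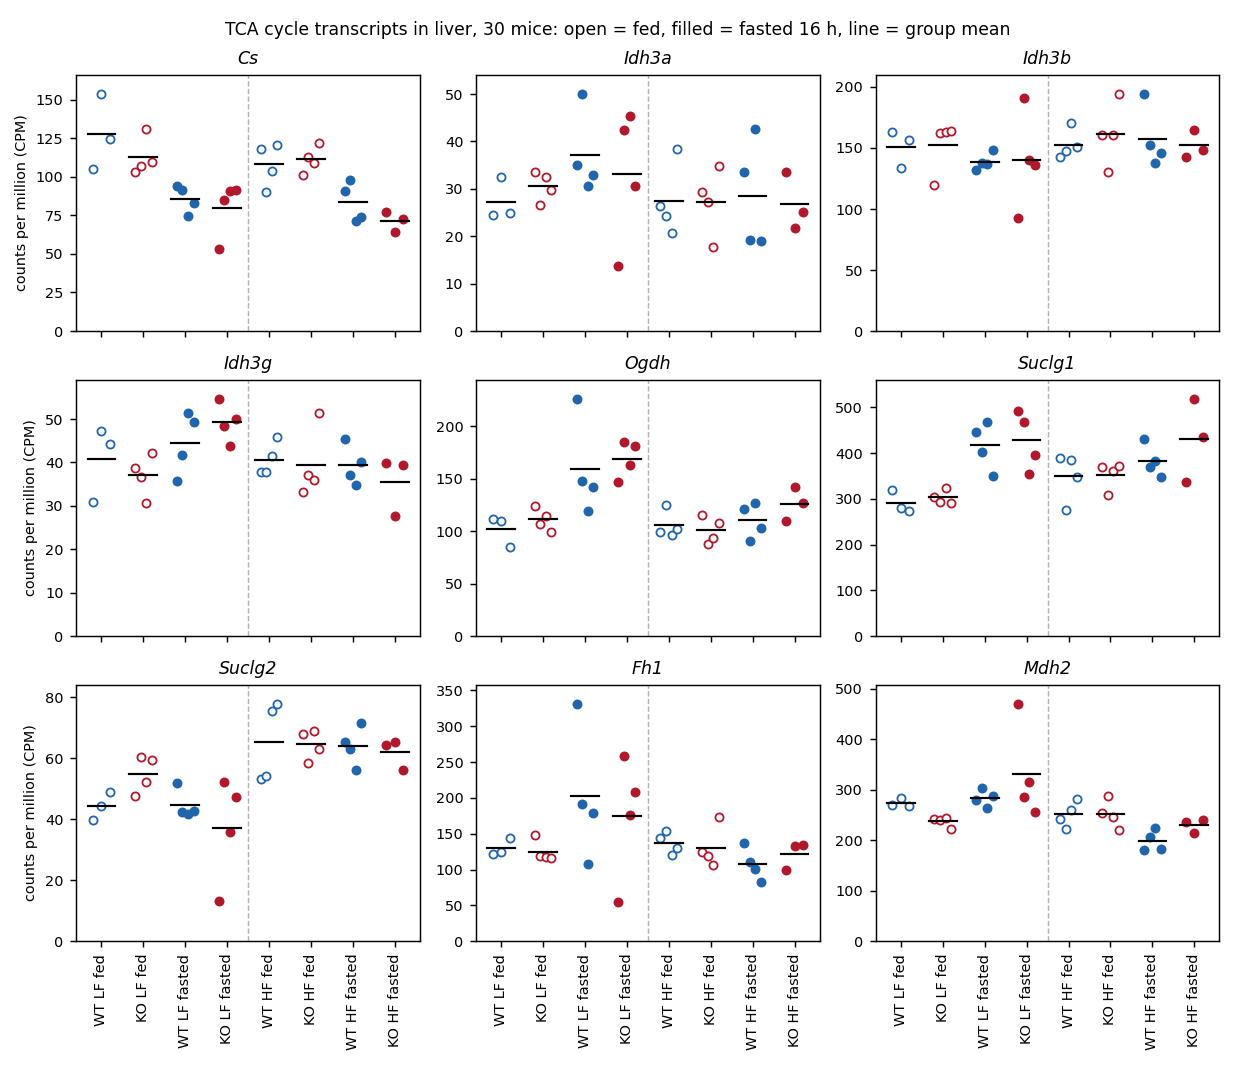
Level of each of the 9 genes in CPM (y axes, starting at 0) in every mouse of the 8 groups (x axes), with WT in blue, KO in red, fed open and fasted filled, and the group mean as a black line. Cs is lower in the fasted groups on either diet, and Ogdh and Suclg1 are higher in the LF fasted groups. KO LF fasted replicate 1 has the lowest Cs (52.9 CPM), Idh3a (13.7 CPM), Idh3b (92.7 CPM), Suclg2 (13.2 CPM) and Fh1 (54.7 CPM). It also has the highest Idh3g (54.7 CPM) and Mdh2 (471 CPM).

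The fasting calls held with each of the 30 mice left out in turn, without the 4 mice that carried pancreas or muscle RNA, and without the 4 that carried adrenal RNA. The left-out mice include the KO HF fasted library with heart transcripts, where Cs was 505.7 CPM beside at most 155.1 in the 30 mice. With both left-out mice included, the fasting value of Cs was -0.15 and was not called (edgeR, adjusted p = 0.684), while Ogdh and Suclg1 were. The calls differed between the sequencing lanes given in the labels. All WT LF fed mice were on lane 8, so lane 7 held none of that group. In WT on LF, lane and feeding state are thus partly mixed, as are lane and diet in WT fed mice and lane and genotype in LF fed mice. In the 14 mice of lane 8 all 3 genes were called again (Cs -0.64, Ogdh 0.41, Suclg1 0.31 on the log2 scale, with edgeR adjusted p-values of 0.000144, 0.0121 and 0.0427). In the 16 mice of lane 7 the values were -0.38, 0.31 and 0.36, and none was called (edgeR adjusted p = 0.142, 0.318 and 0.176).

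Within the LF diet, the same 3 genes were called in either genotype. In WT on LF, 3 of 9 members were called against 7.54% of all genes (3.75% higher, 3.79% lower). In KO on LF, 4 of 9 were called against 13.8% of all genes (7.26% higher, 6.53% lower), with Mdh2 as the fourth.

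In WT on LF, Cs was 105, 154 and 124 CPM in the fed mice and 94.2, 91.1, 74.6 and 82.8 CPM in the fasted mice. The groups did not overlap, and the log2 fold change was -0.58 ± 0.17 (edgeR, adjusted p = 0.0334, exact permutation p = 0.0286, the smallest that 3 against 4 mice allow). In KO on LF, Cs was 103, 107, 131 and 109.5 CPM fed and 52.9, 84.7, 90.7 and 91.5 CPM fasted, again without overlap. The log2 fold change was -0.49 ± 0.16 (edgeR, adjusted p = 0.038, exact permutation p = 0.0286).

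Ogdh in WT on LF was 112, 109 and 85.1 CPM fed and 226, 148, 119 and 142 CPM fasted, a log2 fold change of 0.64 ± 0.18 (edgeR, adjusted p = 0.0215, exact permutation p = 0.0571). In KO on LF it was 124, 107, 115 and 98.9 CPM fed and 146, 185, 162 and 181 CPM fasted, a log2 fold change of 0.60 ± 0.17 (edgeR, adjusted p = 0.0108, exact permutation p = 0.0286). Every fasted LF mouse lay above every fed LF mouse of its genotype.

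Suclg1 gave the same picture. In WT on LF it was 319, 279 and 274 CPM fed and 446, 402, 468 and 350.5 CPM fasted, a log2 fold change of 0.52 ± 0.16 (edgeR, adjusted p = 0.0421, exact permutation p = 0.0571). In KO on LF it was 304, 292, 324 and 291 CPM fed and 492, 468, 355 and 395 CPM fasted, a log2 fold change of 0.50 ± 0.15 (edgeR, adjusted p = 0.0204, exact permutation p = 0.0286). The groups did not overlap in either genotype.

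Mdh2, which turns malate into oxaloacetate, was 242, 239.9, 245 and 223 CPM in KO LF fed mice and 471, 286, 316 and 257 CPM in those fasted on LF. Its log2 fold change was 0.48 ± 0.15 (edgeR, adjusted p = 0.0241, exact permutation p = 0.0286), and 1 mouse, the one whose library stood apart, held the value of 471 CPM. Without that mouse it was 0.27 (edgeR, adjusted p = 0.195). In WT on LF, Mdh2 was 269.9, 284 and 267 CPM fed and 279.7, 304, 263 and 288 CPM fasted, a log2 fold change of 0.05 ± 0.16. The difference between KO and WT in the fasting effect, averaged over diets, was 0.32 ± 0.15 for Mdh2 and did not pass (edgeR, adjusted p = 0.981).

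These LF counts rested on few mice. Without WT LF fed replicate 3 or replicate 4, 0 of the 9 members were called in WT, and without WT LF fasted replicate 1, 2 or 3 only 1 was. In KO, 2 members were called without LF fasted replicate 1 or LF fed replicate 2, and 1 without LF fed replicate 4. Leaving out the mice with adrenal RNA leaves 2 KO LF fasted mice, and 1 of them is replicate 1, whose library stood apart. In that setting Cs, Suclg1 and Mdh2 were called and Ogdh was 0.57 (edgeR, adjusted p = 0.0623). Over all settings tried, the log2 fold changes in WT on LF stayed between -0.70 and -0.42 for Cs, 0.42 and 0.75 for Ogdh, and 0.46 and 0.59 for Suclg1. In KO on LF they stayed between -0.70 and -0.34 for Cs and 0.55 and 0.67 for Ogdh. There Suclg1 stayed between 0.42 and 0.66 and Mdh2 between 0.27 and 0.66.

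On the HF diet no member was called after fasting. In WT on HF, edgeR called 0 of 9 against 0.424% of all genes, and DESeq2 and limma voom called 0. At an unadjusted edgeR p under 0.05 there were 2 members, beside 9.19% of all genes. In KO on HF, edgeR called 0 of 9 against 0.527% of all genes. There 1 member had an unadjusted edgeR p under 0.05, beside 7.53% of all genes. DESeq2 called 1, Cs, and limma voom 0.

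Cs in KO on HF was 101, 113, 109 and 122 CPM fed and 77.0, 64.3 and 72.3 CPM fasted. The groups did not overlap, and the log2 fold change of -0.64 ± 0.18 had an edgeR adjusted p of 0.102, a DESeq2 adjusted p of 0.0262 and an exact permutation p of 0.0286. In WT on HF the levels were 118, 90.0, 104 and 121 CPM fed and 90.6, 98.2, 71.0 and 73.6 CPM fasted, with overlap, and the log2 fold change was -0.38 ± 0.16 (edgeR, adjusted p = 0.438). The 4 fasting effects of Cs thus ran from -0.64 to -0.38, and their difference between diets was 0.02 ± 0.17.

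For Ogdh the log2 fold change on HF was 0.06 ± 0.17 in WT and 0.32 ± 0.18 in KO. For Suclg1 it was 0.13 ± 0.15 in WT and 0.29 ± 0.16 in KO. For Mdh2 it was -0.34 ± 0.15 in WT and -0.13 ± 0.16 in KO. The fed and fasted groups overlapped in each of these. WT HF fasted replicates 2 and 4 carried pancreas or muscle RNA. They were the lowest of their group for Ogdh (90.3 and 103 CPM beside 121 and 127) and Suclg1 (369 and 347 CPM beside 432 and 383). For Mdh2 they were 206 and 182 CPM beside 180.3 and 225 CPM. The part of that RNA in these values was not tested further.

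**Figure D2:**
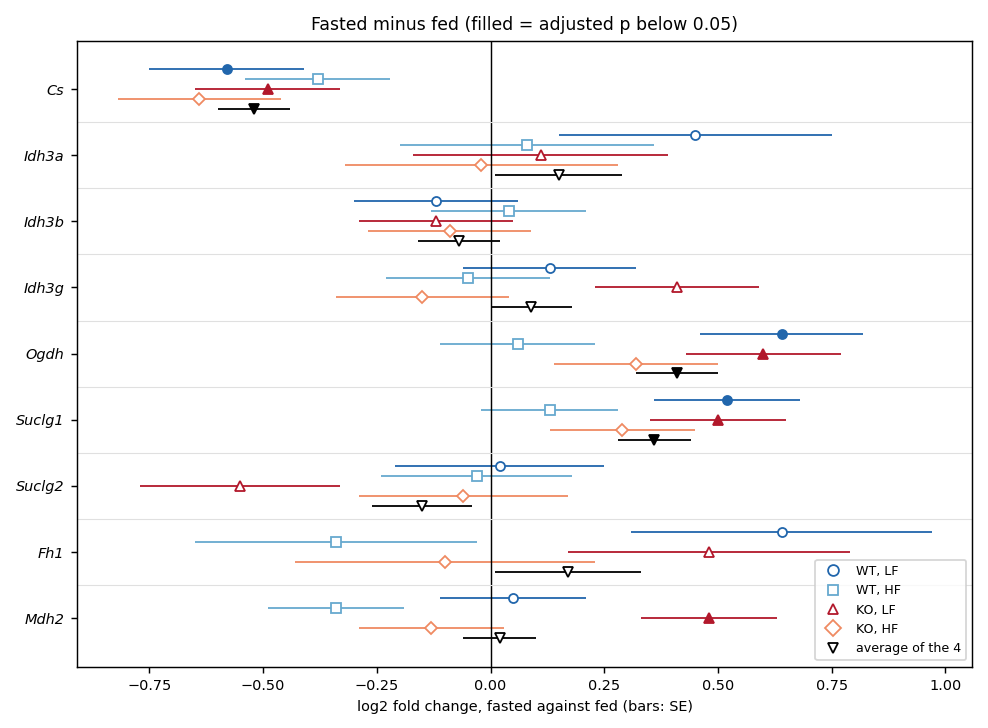
Log2 fold change of fasted against fed (x axis, bars are SE) for each of the 9 genes (y axis) in WT and KO on LF and HF and averaged over the 4, with filled symbols for an adjusted p below 0.05. Cs lies left of 0 in all 4 pairs, from -0.64 to -0.38, and among the pairs Ogdh and Suclg1 are filled on LF only.

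Whether fasting acted differently on HF than on LF was tested by the interaction of fasting and diet, over both genotypes. No member passed: edgeR called 0 of 9 against 2.46% of all genes, DESeq2 called 1 and limma voom 0. At an unadjusted edgeR p under 0.05 there were 3 members, beside 13.3% of all genes. The 3 were Mdh2 at -0.50 ± 0.16 (edgeR, adjusted p = 0.0797), Fh1 at -0.78 ± 0.32 (adjusted p = 0.248) and Ogdh at -0.43 ± 0.17 (adjusted p = 0.231). The call by DESeq2 was Mdh2, at -0.51 with an adjusted p of 0.0279. Without the mice with adrenal RNA, edgeR called Mdh2 too, at -0.62 (adjusted p = 0.0337). The interaction values of Mdh2, Fh1 and Ogdh are all negative, which means a lower fasting effect on HF. The median over the 9 genes was -0.30, beside -0.009 over all genes. The mice with pancreas or muscle RNA were all on HF, among them WT HF fasted replicates 2 and 4. The part of that RNA in the interaction was not tested further.

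Mdh2 was 223 to 284 CPM in LF fed mice (median 245), 257 to 471 CPM in LF fasted (median 287), 220.2 to 288 CPM in HF fed (median 251) and 180.3 to 241 CPM in HF fasted mice (median 214). The HF fasted mice lay wholly below the LF fasted mice. Fh1 was 116 to 148 CPM in LF fed, 54.7 to 332 CPM in LF fasted, 106 to 173 CPM in HF fed and 82.1 to 138 CPM in HF fasted mice. The LF fasted group alone had both the lowest and the highest value of Fh1, with an SD of 84.9 CPM around a mean of 189 CPM (n = 8), where the SD was 13.4 CPM in LF fed mice. Without KO LF fasted replicate 1, the mouse at 54.7 CPM, the interaction of Fh1 was -0.93 and passed (edgeR, adjusted p = 0.0199).

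The interaction of fasting and genotype was called for 0 of 9 members (0% of all genes by edgeR) and for 0 by DESeq2 or limma voom. Only 1 member had an unadjusted edgeR p under 0.05, beside 4.95% of all genes. The interaction of diet and genotype was called for 0 of 9 (0% of all genes), and for 0 by either other tool. No member had an unadjusted edgeR p under 0.05, beside 3.43% of all genes.

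For the diet, 2 of the 9 members were called on average over genotypes and feeding states: Suclg2 was higher on HF and Mdh2 was lower. Among all genes 3.49% were called, 2.26% higher and 1.24% lower. The median log2 fold change was -0.14 over the members and 0.007 over all genes.

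Suclg2, the subunit that makes the ligase GTP-forming, was 13.2 to 60.3 CPM on LF (median 47.3, n = 15) and 53.3 to 77.9 CPM on HF (median 64.4, n = 15). Its log2 fold change was 0.51 ± 0.11, or 1.42-fold (edgeR, adjusted p = 0.00551). In WT fed mice it was 39.7, 44.3 and 49.0 CPM on LF and 53.3, 54.2, 75.4 and 77.9 CPM on HF. In WT fasted mice it was 51.8, 42.5, 41.8 and 42.8 CPM on LF and 65.2, 63.2, 56.3 and 71.7 CPM on HF. In both of these pairs the diets did not overlap (exact permutation p = 0.0857 in fed and 0.0286 in fasted mice).

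In KO fasted mice Suclg2 was 13.2, 52.3, 35.9 and 47.3 CPM on LF and 64.4, 65.4 and 56.3 CPM on HF, also without overlap (exact permutation p = 0.114). In KO fed mice it was 47.7, 60.3, 52.2 and 59.5 CPM on LF and 68.1, 58.3, 68.8 and 63.2 CPM on HF, with overlap. The 4 log2 differences were 0.56 ± 0.23, 0.52 ± 0.22, 0.72 ± 0.23 and 0.24 ± 0.21, in the order given. Without the mouse at 13.2 CPM the average was 0.44 (edgeR, adjusted p = 0.000688).

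Mdh2 was 223 to 471 CPM on LF (median 269.9) and 180.3 to 288 CPM on HF (median 236), a log2 fold change of -0.27 ± 0.08 (edgeR, adjusted p = 0.0424). The log2 difference was -0.52 ± 0.15 in WT and -0.53 ± 0.16 in KO fasted mice, beside -0.12 ± 0.16 and 0.09 ± 0.15 in the fed mice. That contrast between feeding states is the interaction given above, which did not pass. In WT fasted mice the values were 279.7, 304, 263 and 288 CPM on LF and 180.3, 206, 225 and 182 CPM on HF, without overlap (exact permutation p = 0.0286). In KO fasted mice they were 471, 286, 316 and 257 CPM on LF and 236, 214 and 241 CPM on HF, again without overlap (exact permutation p = 0.0571).

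The diet calls were not firm. All 4 mice with pancreas or muscle RNA were on HF, and without them 0 of 9 members were called (Suclg2 0.46, edgeR adjusted p = 0.0522; Mdh2 -0.28, adjusted p = 0.125). The part of that RNA in the result was not tested further. In the lane 8 mice alone Suclg2 was 0.49 (edgeR, adjusted p = 0.0436) and Mdh2 -0.15 (adjusted p = 0.621). In the lane 7 mice alone they were 0.49 and -0.35, and neither was called (edgeR, adjusted p = 0.401 and 0.449). Mdh2 lost its call in 28 of 43 alternative settings and Suclg2 in 3.

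Ogdh was -0.26 ± 0.09 on HF against LF and Fh1 -0.32 ± 0.16, without passing (edgeR, adjusted p = 0.0934 and 0.323). Both were called, and 4 members in all, when KO LF fasted replicate 1 was left out (adjusted p = 0.0486 and 0.0371). The other 5 members ranged from -0.21 for Idh3a to 0.10 for Idh3b.

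No member was called in the diet comparison within any single genotype and feeding state. edgeR called 0 of 9 in WT fed (0.0778% of all genes), WT fasted (1.12%), KO fed (0.00865%) and KO fasted mice (1.68%). In the same order, 1, 4, 0 and 4 members had an unadjusted edgeR p under 0.05, beside 5.22%, 12.3%, 7.26% and 13.1% of all genes. DESeq2 called 1 in WT fasted and 1 in KO fasted mice, Mdh2 in each, and limma voom called 0 in all 4 pairs. Without the mice with adrenal RNA, edgeR called Mdh2 in KO fasted mice, at -0.71 (adjusted p = 0.0417). There the LF group was replicates 1 and 2, and the library of replicate 1 stood apart. With each mouse left out in turn, that value of Mdh2 ran from -0.63 to -0.31. The lowest value was Fh1 in WT fasted mice, at -0.91 ± 0.31 (edgeR, adjusted p = 0.173), where the levels were 332, 192, 108 and 179 CPM on LF and 138, 111, 101 and 82.1 CPM on HF.

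**Figure D3:**
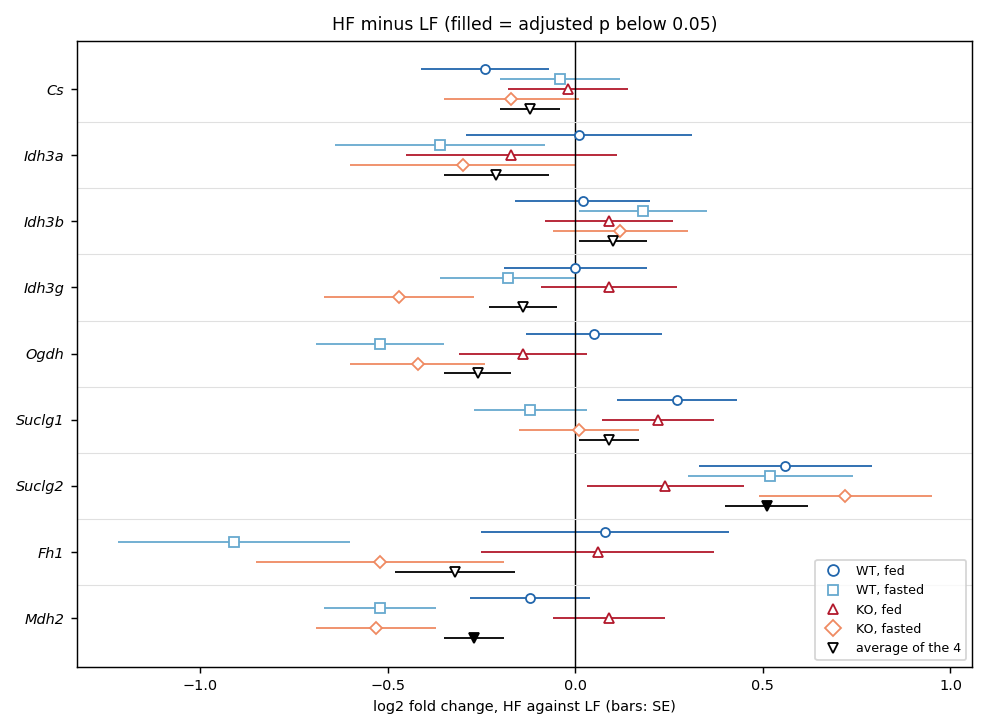
Log2 fold change of HF against LF (x axis, bars are SE) for the 9 genes (y axis) in fed and fasted WT and KO mice and averaged over the 4, with filled symbols for an adjusted p below 0.05. Suclg2 lies right of 0 in all 4 pairs, from 0.24 to 0.72, and Mdh2 lies left of -0.5 in the fasted pairs only.

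For the genotype, edgeR called 0 of the 9 members on average (0.00865% of all genes, which is the single gene called), and DESeq2 and limma voom called 0. No member had an unadjusted edgeR p under 0.05, beside 2.9% of all genes. The 9 log2 fold changes of KO against WT ran from -0.12 for Cs to 0.09 for Ogdh. Cs was 52.9 to 131 CPM in KO mice (median 101, n = 15) and 71.0 to 154 CPM in WT mice (median 94.2, n = 15). Ogdh was 87.9 to 185 CPM in KO and 85.1 to 226 CPM in WT mice, with medians of 115 and 112 CPM. The ranges of the genotypes overlapped in both genes.

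Within each condition, KO and WT were compared in the mice of that condition alone. edgeR called 0 of 9 members in LF fed (0.0193% of all genes), LF fasted (0.0104%), HF fed (0.00998%) and HF fasted mice (0.0096%). In none of the 4 did a member reach an unadjusted edgeR p under 0.05. The shares of all genes were 5.61%, 2.28%, 3.92% and 3.69%, in the same order. DESeq2 and limma voom called 0. In LF fed mice the log2 fold changes ran from -0.20 ± 0.11 for Mdh2 to 0.31 ± 0.17 for Suclg2. Mdh2 was 242, 239.9, 245 and 223 CPM in KO and 269.9, 284 and 267 CPM in WT mice there, without overlap (exact permutation p = 0.0286, edgeR adjusted p = 0.909). These WT mice were all on the same lane, and the KO mice were on both lanes.

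The narrowest spread was in HF fed mice, from -0.06 to 0.09. With 1.96 SE on either side, no interval there reached beyond 0.46 in size, which was Idh3a. In LF fasted mice the values ran from -0.26 to 0.22, and the interval of Fh1 reached from -1.05 to 0.63, so that a change of that size was not detectable. In HF fasted mice they ran from -0.23 for Cs to 0.21 for Mdh2.

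**Figure D4:**
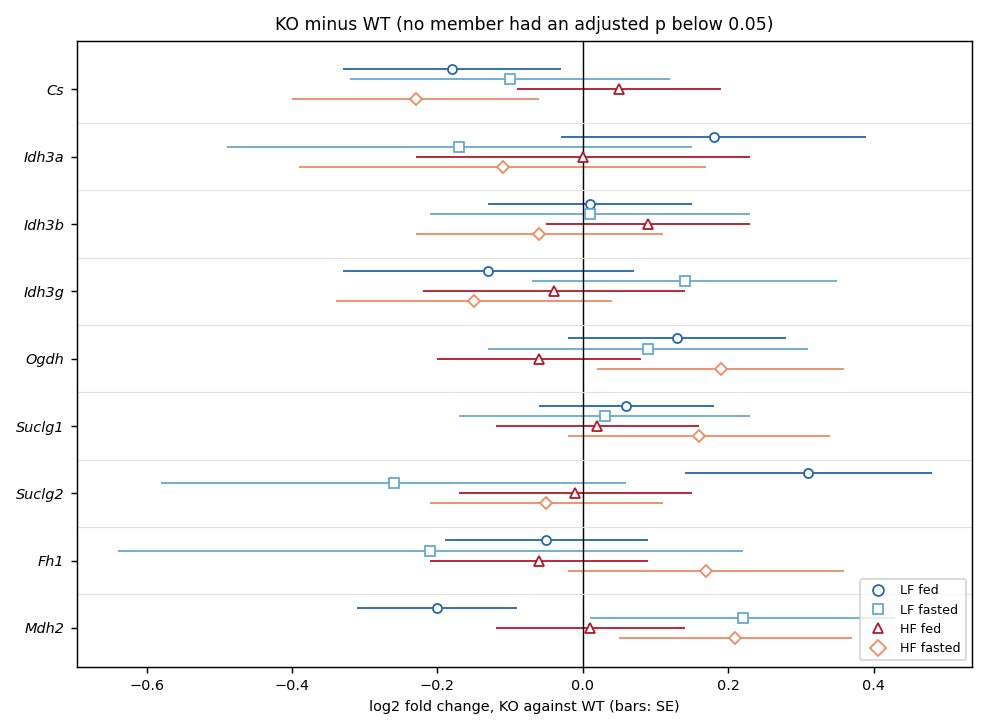
Log2 fold change of KO against WT (x axis, bars are SE) for the 9 genes (y axis) in the 4 conditions of diet and feeding. All values lie between -0.26 and 0.31, and none had an adjusted p below 0.05.

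Other enzymes of the cycle that were followed are Dlst and Dld (the other parts of the 2-oxoglutarate dehydrogenase complex), Sucla2 (of the ATP-forming ligase) and the 4 subunits of succinate dehydrogenase. Of these 7 genes, 2 were called on fasting, beside 18.9% of all genes, so that the count is not far from what the genes at large gave: Dlst rose and Sdha fell. Their median log2 fold change was -0.01. Dlst was 78.2 to 122.9 CPM in fed and 93.7 to 219.0 CPM in fasted mice, a log2 fold change of 0.52 ± 0.09 (edgeR, adjusted p = 5.29e-05). The log2 fold change of Dld, which other complexes also use, was -0.01.

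Sdha fell by 0.19 ± 0.06 (edgeR, adjusted p = 0.033), from 395.3 to 494.3 CPM in fed mice to 380.3 to 457.0 CPM in fasted mice. The call of Sdha was lost in 14 of 43 alternative settings. The log2 fold change of Dlst was 0.90 ± 0.20 in WT on LF (edgeR, adjusted p = 0.00181) and 0.61 ± 0.18 in KO on LF (edgeR, adjusted p = 0.0178). On diet the 7 genes ran from -0.24 to 0.06 and on genotype from -0.12 to 0.04 on the log2 scale.

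**Figure D5:**
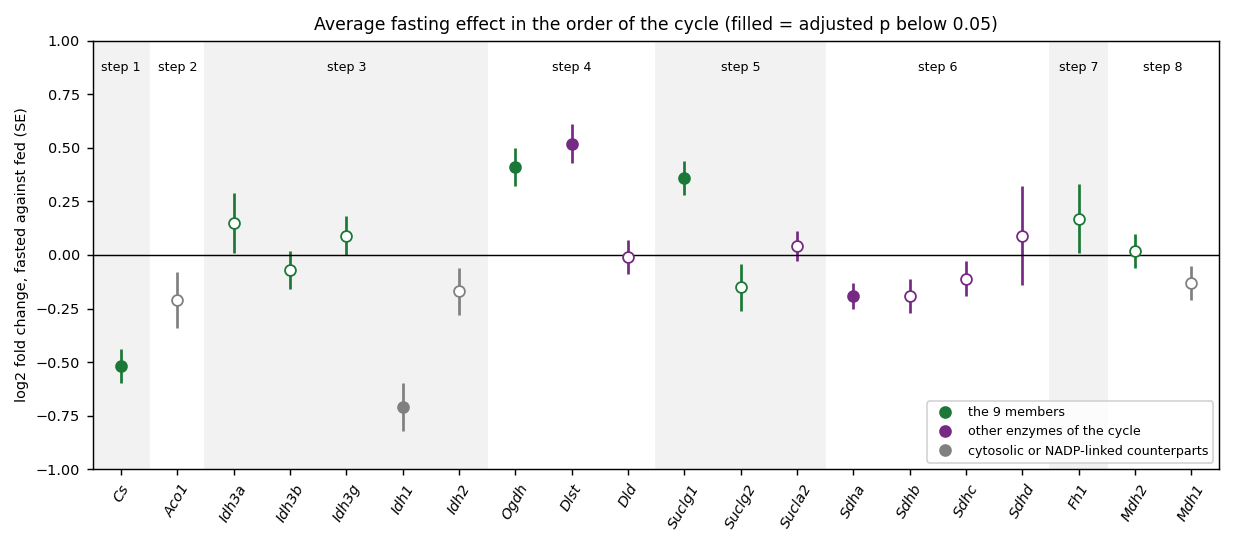
Average log2 fold change of fasted against fed (y axis, bars are SE) for genes of the cycle in the order of its steps (x axis), with the 9 members in green, 7 other enzymes in purple, cytosolic or NADP-linked counterparts in grey, and filled symbols for an adjusted p below 0.05. Step 1 (Cs) is at -0.52, steps 4 and 5 hold the genes shown that rose, and the subunits of step 6 lie from -0.19 to 0.09.

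Enzymes that run the same reactions outside the cycle were also followed. Of the 4 that were tested (Aco1, Idh1, Idh2 and Mdh1), 1 was called on fasting, beside 18.9% of all genes. Idh1, the cytosolic NADP-linked isocitrate dehydrogenase, was 635.4 to 921.7 CPM in fed and 240.0 to 671.7 CPM in fasted mice. Its log2 fold change was -0.71 ± 0.11 (edgeR, adjusted p = 3.37e-06).

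Of 16 genes for the entry and exit of carbon (pyruvate dehydrogenase, pyruvate carriers, anaplerotic enzymes and carriers), 11 were called on fasting, 5 higher and 6 lower, beside 9.77% of all genes called higher and 9.14% lower. Their median was -0.04. Acly, the ATP citrate lyase that splits exported citrate, fell by 2.78 ± 0.22 on the log2 scale (edgeR, adjusted p = 1.02e-09). It went from 107.6 to 845.3 CPM in fed mice to 34.6 to 103.4 CPM in fasted mice, with no overlap. Slc25a1, the citrate carrier of the inner membrane, fell by 0.60 ± 0.09 (edgeR, adjusted p = 1.12e-06). On average over genotypes and diets, the transcripts of citrate synthase, the citrate carrier and the cytosolic lyase were thus all lower in fasted mice. In WT on HF, Acly was called and Cs and Slc25a1 were not.

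Gpt2, the mitochondrial alanine aminotransferase that yields pyruvate from alanine, rose by 0.97 ± 0.10 (edgeR, adjusted p = 6.04e-10), and Slc25a10, the dicarboxylate carrier, by 0.67 ± 0.10 (edgeR, adjusted p = 6.4e-06). Gpt2 was 171.1 to 276.3 CPM in LF fed, 384.3 to 886.2 CPM in LF fasted, 194.6 to 325.0 CPM in HF fed and 284.1 to 357.1 CPM in HF fasted mice. It passed the interaction of fasting and diet at -1.14 ± 0.19 (edgeR, adjusted p = 0.000456). On diet alone Gpt2 was -0.35 ± 0.10 (edgeR, adjusted p = 0.0276, lost in 11 of 43 alternative settings).

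Of 7 regulators of mitochondrial and fasting genes, 2 rose on fasting, where 9.77% of all genes were called higher. Ppara, the fatty acid receptor of the fasted liver, was 0.63 ± 0.13 (edgeR, adjusted p = 0.000726), and the coactivator Ppargc1b 0.53 ± 0.19 (edgeR, adjusted p = 0.0475, lost in 29 of 43 alternative settings). The coactivator Ppargc1a was called for diet, at -0.54 ± 0.15 on HF (edgeR, adjusted p = 0.0384, lost in 24 of 43). The median fasting value of the 7 was 0.18.

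The 9 genes did not move as a block across mice. Over the 30 mice, the Pearson correlation of log2 CPM between members was -0.778 to 0.676 for the 36 pairs, with a median of 0.128 and 22 pairs above 0. The mice share diets, feeding states and genotypes, and after subtracting group means the range was -0.694 to 0.682 with a median of 0.0793. The lowest pair was Suclg2 and Mdh2 at r = -0.778 (Spearman rho = -0.603), which was -0.499 without the 2 mice farthest from the median of Suclg2. The highest was Idh3b and Suclg2 at r = 0.676 (rho = 0.513), which was 0.385 without the 2 mice farthest from the median of Idh3b.

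For no member was another member the gene with the most alike pattern among 11565 others. The nearest approach was Idh3a, for which Fh1 ranked 26, and the farthest was Cs, for which Suclg2 ranked 1489. Outside the set, the gene most alike to each member over the 30 mice was Lactb2 for Cs (r = 0.868), Usp25 for Idh3a (r = 0.744), Pccb for Idh3b (r = 0.818) and Cox6a1 for Idh3g (r = 0.734). It was Aass for Ogdh (r = 0.851), Pctp for Suclg1 (r = 0.881), Tmbim6 for Suclg2 (r = 0.892), Ctsl for Fh1 (r = 0.856) and Uqcrh for Mdh2 (r = 0.834). Each was picked as the highest of many, so that r is a description. Without the 2 mice farthest from the member's median, r fell most for Tmbim6 and Suclg2, to 0.627.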

How the data were processed

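Liver RNA of the mice was extracted from freeze-clamped tissue and prepared as 3′ tag libraries. Per the methods and the labels, the authors mapped single reads to GRCm38 with HISAT 0.1.5, sorted them with SAMtools 1.2 and counted reads per gene with HTSeq 0.6.1p1 in union mode. The deposited values are these raw counts for 20076 Ensembl genes, with no normalization. Whether the counting used strand is not given in the sources used here, and the methods name Ensembl release 82 where the table names 76. Symbols came from GENCODE vM21 and matched 19913 identifiers. The labels place 16 libraries in a lane, where the methods describe fewer.

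Counts were scaled by TMM and filtered by filterByExpr, and tested with the robust quasi-likelihood F test of edgeR 4.0.16 in R 4.3.3, with Benjamini-Hochberg adjustment over all genes tested. Effects of fasting, diet and genotype, their interactions and pairs of groups came from 1 model of the 8 groups (30 mice, 11566 genes). The fits within a single lane instead held genotype, diet and feeding state as terms without interactions. KO and WT within a condition were fitted on the mice of that condition (9639 to 10413 genes). The SE is the log2 fold change divided by the square root of F. Single genes were also compared by exact permutation of log2 CPM with a prior count of 2, two-sided. Alternatives were DESeq2 1.42.0, limma 3.58.1 (voom), other scaling, no filter, other sets of mice, lane, age or replicate number as a term, each mouse left out and, chosen after seeing the marker sums, mice with pancreas or muscle RNA (over 300 CPM) or adrenal RNA (over 10 CPM) left out. The code was tested on simulated data. Some results are not reported here. The genes named were all 9 members, up to 4 called genes of smallest p from each list of related genes, and the gene most alike to each member. The members, the lists and these rules were chosen with earlier results of these data known. p-values measure the spread between mice, which the labels number as replicates, and intervals cover no other error. No pair of mice of a group had counts as close as sampling noise.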

Additional observations from a re-analysis of the deposited data

Results flagged for a closer look

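Over 54 sets of 4 mice (9 genes in 6 groups), 3 held a mouse far from the other 3 by Dixon's criterion, and chance gives about 1 in 20. Idh3b was 119.8 CPM in a KO LF fed mouse beside 162 to 164 CPM in the others. Suclg2 was 51.8 CPM in a WT LF fasted mouse beside 41.8 to 42.8 CPM. Fh1 was 148.3 CPM in a KO LF fed mouse beside 116 to 119 CPM.

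The fasting effect differed between diets for Gpt2, at -1.14 on the log2 scale (edgeR, adjusted p = 0.000456), given as HF minus LF.

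The KO HF fasted library that was left out held heart markers at 41752 CPM and hepatocyte markers at 858 CPM. In it, 6 of the 9 members lay above every one of the 30 mice used, on CPM scaled over all 32 libraries. Cs was 505.7 CPM beside at most 155.1, Idh3a 338.3 beside 50.6, and Idh3b 354.9 beside 196.4. Idh3g was 241.0 CPM beside at most 55.1, Ogdh 834.1 beside 228.3, and Mdh2 1298.4 beside 474.5. Suclg1, Suclg2 and Fh1 were 456, 30.4 and 236 CPM, within the range of the 30 mice. The 7 other enzymes of the cycle that were followed were all above that range in the same library.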

How the results depend on the processing

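The fasting count of 3 became 2 with all 32 mice, where Cs was not called, and 0 in lane 7 mice alone. It was 3 in the other alternatives, including each mouse left out in turn. The diet count of 2 became 0 with all 32 mice, in lane 7 mice and without the mice carrying pancreas or muscle RNA (a setting chosen after seeing the data), and 1 with no filter, with age as a term, in lane 8 mice and with the replicate block. It was 1 to 4 with 1 mouse left out. Fasting in WT LF (3 called) gave 1 with no filter, 0 with all 32 mice and 1 with the replicate block, and 0 to 3 with 1 mouse left out. Fasting in KO LF (4 called) gave 2 with no filter, 0 with all 32 mice and 0 with the 2 groups fitted alone, and 1 to 4 with 1 mouse left out. DESeq2 called 1 member each, beside 0, in fasting in KO HF, diet in WT fasted, diet in KO fasted and fasting by diet, where leaving out 1 mouse gave 0 to 1, 0 to 2, 0 to 1 and 0 to 1. Without the mice carrying adrenal RNA (also chosen after seeing the data), diet in KO fasted and fasting by diet gave 1 each, Mdh2. All other counts of 0 stayed at 0. In the settings with all 32 mice the heart-marked library took part, and the cause of the other changes was not tested.

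With all 32 mice the log2 sign turned for Idh3b (0.06) on fasting, for Cs (0.25), Idh3a (0.27), Idh3g (0.20) and Ogdh (0.06) on diet, for Mdh2 (0.11) in fasting by diet, for Cs on fasting in KO HF (0.68) and for Mdh2 on diet in KO fasted (0.57). It turned in lane 7 mice for Idh3b on fasting (0.06), in lane 8 mice for Mdh2 on fasting (-0.07) and Idh3a on diet (0.01), and with 31 mice for Mdh2 on fasting (-0.01), which ran from -0.04 to 0.04 with 1 mouse left out. None of these was called in either setting.

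Replicate numbers did not pair mice: over 42 same-numbered pairs the correlation of deviations had a median of -0.000244 (-0.153 to 0.168), and 20 of 84 comparisons had a mouse closest to its own number. The replicate block took the diet call of Mdh2 (adjusted p = 0.0507) and the WT LF calls of Cs and Suclg1 (adjusted p = 0.0516 for each). The lowest counts of Idh3a and Suclg2 were 31 and 30, both in KO LF fasted replicate 1, whose library stood apart.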
